A study of Homo sapiens with 6 samples.

Results

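The genes described here are 10 genes of the integrated stress response and the unfolded protein response, taken from a fixed list of symbols: ATF4, DDIT3, CHAC1, ASNS, TRIB3, PPP1R15A, EIF2AK3, HSPA5, XBP1 and ATF6. They are 10 of 20037 protein-coding genes of the RefSeq annotation of GRCh38.p14, and all 10 were found there. MYC binding was mapped by chromatin immunoprecipitation sequencing, with the Cell Signaling Technology antibody 9402, in MIAPaCa2, an established human line of pancreatic ductal adenocarcinoma. The cells had been without serum for 48 hours and then spent 3 hours in fresh serum-free DMEM (DMEM) or in serum-free conditioned medium of primary cancer-associated fibroblasts (CM). Each condition has 2 immunoprecipitated libraries and 1 input, and the 2 inputs were not used here. The labels do not tie the libraries to separate cultures, so the spread between them may be technical. All groups share the 1 cell line and the starvation, and the medium is the difference between them. Peak lists carry no expression values, so the line was not checked against marker genes.

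Each library has its own list of MYC peaks, 15304 and 12797 in CM libraries 1 and 2 and 4657 and 7652 in DMEM libraries 1 and 2. The lists hold no read counts, so the depth is unknown, and a peak missing from a list fell below the authors' threshold and is not shown to be absent. A gene was counted as having an end peak where a peak lay within 1000 bp of either outermost end. The score of a peak is the authors' own value. It is given as its percentile, the percentage of peaks in the same list with an equal or lower score. A percentile places a peak within its own list and does not compare levels between lists. With 2 libraries against 2, and members chosen with earlier results known, no test was made, and counts stand beside the share of all protein-coding genes that meet the same rule.

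The integrated stress response converges on phosphorylation of the translation initiation factor eIF2, which lowers general protein synthesis and favours translation of the transcription factor ATF4. The unfolded protein response adds the endoplasmic reticulum sensors PERK (encoded by EIF2AK3), IRE1 (encoded by ERN1, which splices XBP1 mRNA) and ATF6. MYC, which binds DNA as a dimer with MAX, is known to raise protein synthesis, and this load engages the same pathways in tumour cells.

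MYC peaks lay at 4 of the 10 genes in all 4 libraries: ATF4, ATF6, XBP1 and HSPA5. TRIB3 had one in 3 libraries, both of CM and DMEM library 2. CHAC1 had an end peak in each CM library and in no DMEM library, and so had ASNS once peaks inside the gene were counted. DDIT3 and EIF2AK3 had a peak in CM library 1 alone, and PPP1R15A had none in any library. ATF4, ATF6, XBP1 and HSPA5 were thus listed in DMEM as well as in CM, and the other 6 genes were listed in at most 1 DMEM library.

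The sequences just before the starts of 4 of these genes show which of the searched motifs lie there. They are from RefSeq (GRCh38.p14), printed 5′ to 3′ in the direction of the gene and ending at the base before the first listed start, with matches to the searched motifs in capitals. ATF4 lies on the plus strand at chr22:39520309-39520558, CHAC1 on the plus strand at chr15:40953221-40953470, HSPA5 on the minus strand at chr9:125241344-125241593 and XBP1 on the minus strand at chr22:28800570-28800819.
ATF4: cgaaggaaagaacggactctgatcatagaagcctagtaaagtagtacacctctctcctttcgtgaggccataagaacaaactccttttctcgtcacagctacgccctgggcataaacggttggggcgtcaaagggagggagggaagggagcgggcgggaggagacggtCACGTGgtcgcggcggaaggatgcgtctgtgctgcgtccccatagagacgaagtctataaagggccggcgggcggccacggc
HSPA5: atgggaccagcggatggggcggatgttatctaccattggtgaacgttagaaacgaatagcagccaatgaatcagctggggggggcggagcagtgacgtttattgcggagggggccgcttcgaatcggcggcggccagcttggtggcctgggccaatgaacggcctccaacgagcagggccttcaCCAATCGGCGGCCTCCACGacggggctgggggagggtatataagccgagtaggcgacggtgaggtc
XBP1: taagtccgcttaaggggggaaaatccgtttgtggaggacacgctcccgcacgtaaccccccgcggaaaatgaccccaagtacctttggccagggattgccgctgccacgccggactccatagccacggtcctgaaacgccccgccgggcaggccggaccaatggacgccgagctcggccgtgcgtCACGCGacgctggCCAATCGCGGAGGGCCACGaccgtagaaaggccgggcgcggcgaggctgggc
CHAC1: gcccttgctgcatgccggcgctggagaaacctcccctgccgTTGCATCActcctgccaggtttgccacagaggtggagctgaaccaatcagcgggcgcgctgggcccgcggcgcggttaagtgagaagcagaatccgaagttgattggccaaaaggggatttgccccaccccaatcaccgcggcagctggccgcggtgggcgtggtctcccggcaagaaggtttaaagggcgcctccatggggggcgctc
For ASNS and TRIB3, whose listed starts lie inside the annotated gene, stretches of 30 bases around the matches are shown, ASNS on the minus strand at chr7:97872452-97872481 and TRIB3 on the plus strand at chr20:381144-381173.
ASNS: aggcaTGATGAAActtcccgCACGCGttac
TRIB3: gggccCACGCGgaacgacggggcgaggtac

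The search covered the RefSeq promoters of 300 bases, 250 before and 50 after each start, on both strands. All 10 genes had at least 1 listed start. CACGTG, the E-box that MYC and MAX are known to bind, occurred in 7.26% of 35116 promoters. Among the 10 genes it occurred at ATF4 alone, where its first base lies 82 bases before the first listed start. Peaks of all 4 libraries covered it. For comparison, 20.0% of 2685 genes with an end peak in all 4 libraries held CACGTG in a listed promoter. The share was 9.11% of 1834 genes with one in CM only and 8.11% of 8167 genes with no end peak. ATF6, XBP1 and HSPA5 belong to the first of these groups without holding it in these windows. CACGCG, another form of the E-box, occurred in 11.4% of all promoters. By gene, 30.2% of those with an end peak in all 4 libraries held it in a listed promoter, 20.7% of those with one in CM only and 12.0% of those with none. It was present at ATF4, ASNS, TRIB3 and XBP1, and CATGTG, with 11.1% of all promoters, at none of the 10. By gene, the CATGTG shares in the same order were 9.76%, 7.20% and 14.1%.

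Motifs of the stress pathways themselves lay under several peaks. The endoplasmic reticulum stress response element, CCAAT followed after 9 bases by CCACG, is the site of ATF6 and the XBP1 protein. It occurred in 27 of 35116 promoters (0.0769%). HSPA5 and XBP1 each held it, beginning 66 and 52 bases before the first listed start. At both genes it was covered by peaks of CM library 1, CM library 2 and DMEM library 2 and not by those of DMEM library 1. TGATGNAA, the core of the element that ATF4 binds with C/EBP partners, occurred in 3.62% of promoters and at CHAC1 and ASNS. By gene it was less frequent where peaks were listed. The shares were 2.42% with an end peak in all 4 libraries, 2.29% with one in CM only and 4.81% with none. TGATGNAA begins 209 bases before the CHAC1 start, where it reads on the opposite strand, and 68 bases before the first listed ASNS start. Both CM libraries covered it at both genes. Neither gene had a DMEM peak near or inside it, so DMEM coverage of the motif was not possible there. DDIT3, EIF2AK3, PPP1R15A and ATF6 held none of the 5 motifs in these windows. The EIF2AK3 peak and the DMEM peaks of ATF6 lay wholly upstream of the windows, so the sequence under them was not searched. A match describes the sequence and does not show that a factor is bound there. The 10 genes had 17 to 40 CpG dinucleotides per promoter, against a median of 14 over all promoters.

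**Figure D1:**
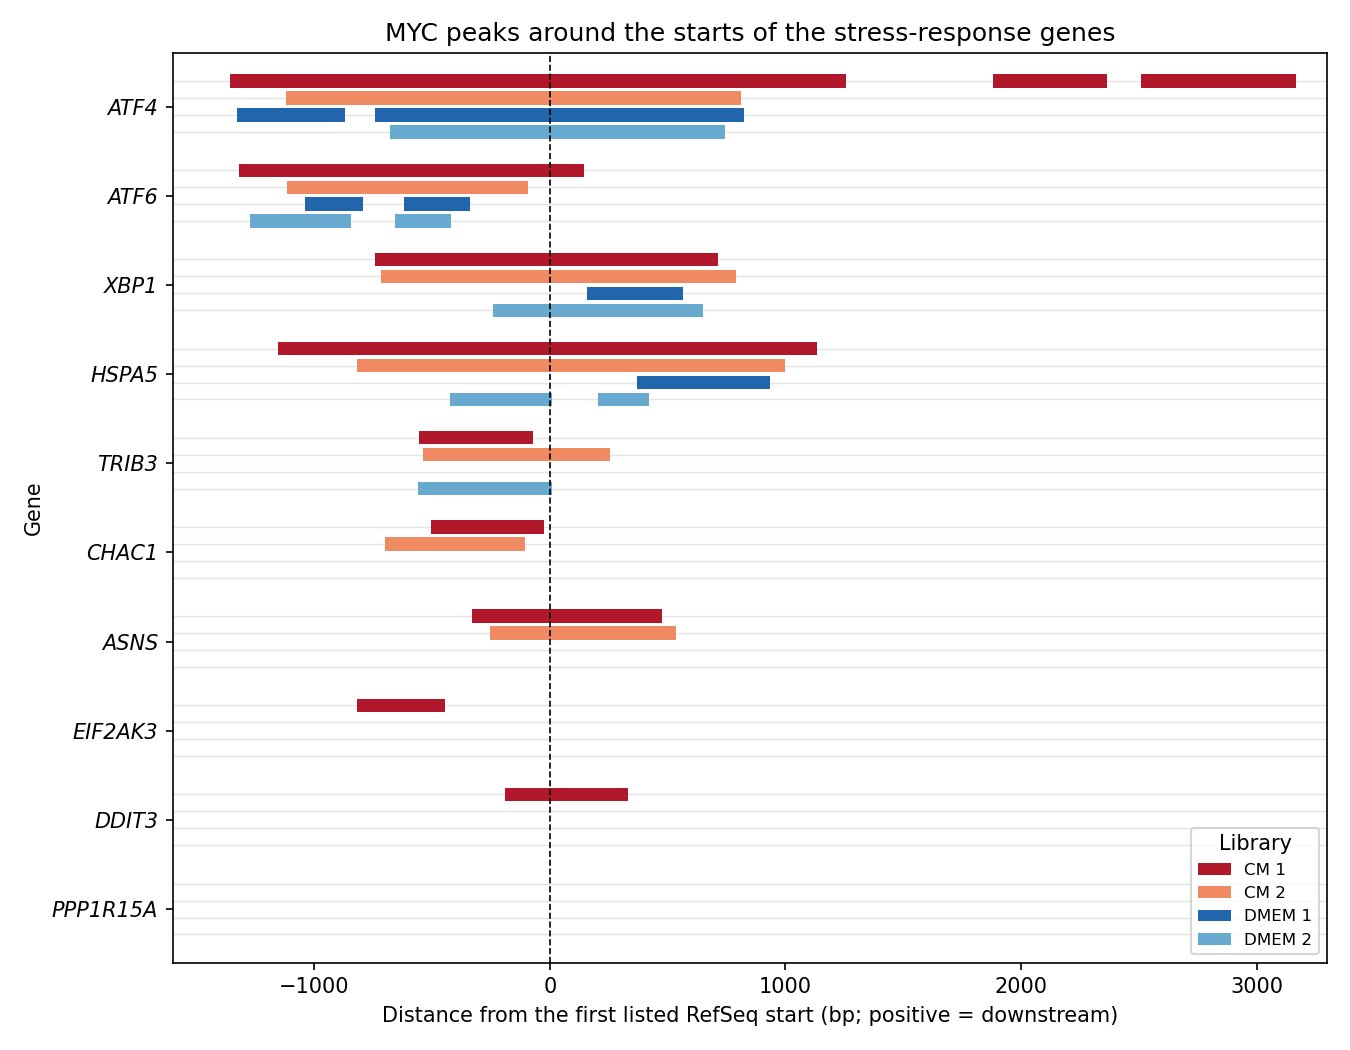
MYC peaks of the 4 libraries around the first listed RefSeq start of each gene, with the distance in bp on the x axis, the genes on the y axis and 1 row per library. Bars run from the first to the last base of a peak, and rows without a bar had no peak within 1000 bp of the gene or inside it. Peaks further away are not drawn, such as that of CM library 2 at 1097 bp from DDIT3. ATF4, ATF6, XBP1 and HSPA5 have bars in all 4 rows and PPP1R15A in none.

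ATF4, the transcription factor whose translation rises when eIF2 is phosphorylated, had the highest peaks of the 10 genes. The gene occupies bases 39520559 to 39522686 of chromosome 22. Its highest-scoring peak was at percentile 97.1 in CM library 1, 93.1 in CM library 2, 91.4 in DMEM library 1 and 96.3 in DMEM library 2, so the CM and DMEM values overlapped. With every list shortened to the 4657 peaks of highest score, the length of the shortest list (lists of equal length), ATF4 was at 90.5 and 81.2 in CM and at 91.4 and 94.0 in DMEM, and the DMEM values lay above the CM values. Among the genes with an end peak in the same library, 94.2%, 88.4%, 86.5% and 94.3% had a lower percentile, in that order. The peak spanned the ATF4 start in all 4 libraries. Its width was 2614 and 1932 bp in CM and 1564 and 1425 bp in DMEM. The median widths over the 3180 genes with an end peak in all 4 libraries were 1872, 1386, 562 and 760 bp, so the ATF4 peak was wider than the median in each library, and the medians too were larger in CM than in DMEM. DMEM library 1 had a further peak upstream, at percentile 37.3, within the stretch that the peak of CM library 1 covers. CM library 1 had another 2 peaks at the other end of ATF4, both at percentile 26.9, and 1 of them is the value of ATF4 there if the peak nearest to an end stands for the gene.

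Other genes with ranks like those of ATF4 were looked for. Of the 3179 other genes with an end peak in all 4 libraries, ZNF783, SPIN3 and HNRNPK (an RNA-binding protein) were nearest to ATF4 in the 4 percentiles, at Euclidean distances of 1.92, 2.25 and 2.29 percentage points. Only 4 libraries enter this distance, so it describes rank alone. The ZNF783 peak also lay at the end of LOC124901769, and the HNRNPK peak at the end of RMI1.

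XBP1, whose mRNA is spliced by IRE1 into the form that encodes an active transcription factor, was next to ATF4 in CM library 1. The gene lies on chromosome 22 from 28794560 to 28800569. Its highest-scoring peak was at percentile 93.5 and 85.4 in CM and at 50.9 and 87.6 in DMEM. DMEM library 1 was the low one, and DMEM library 2 lay between the CM libraries. In lists of equal length XBP1 was at 78.5 and 59.9 in CM and at 50.9 and 79.6 in DMEM, with DMEM library 2 then the highest. In both CM libraries the peak extended over the first listed start, by 741 and 716 bases upstream. In DMEM library 2 it reached 239 bases upstream of that start, whereas the narrow peak of DMEM library 1, 410 bp wide, lay wholly downstream of it, from 157 to 566 bases. That peak spanned the other listed XBP1 start.

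ATF6, the membrane-bound transcription factor that is cut free when unfolded proteins accumulate, had its peaks upstream of its start. The gene covers 161766320 to 161964070 of chromosome 1. The highest-scoring peak was at percentile 91.2 and 85.1 in CM and at 88.0 and 66.7 in DMEM, and the groups overlapped. In lists of equal length they overlapped too, at 71.0 and 59.1 in CM and 88.0 and 45.4 in DMEM. In CM it was a single peak, 1466 and 1024 bp wide, with its midpoint 586 and 604 bases before the start. In each DMEM library there were 2 narrow peaks instead, with midpoints 916 and 478 bases before the start in DMEM library 1 and 1058 and 537 bases before it in DMEM library 2. The highest-scoring of these was the upstream one in DMEM library 1 and the downstream one in DMEM library 2. No DMEM peak reached the ATF6 start, and of the CM peaks that of library 1 did. The same peaks lay at the ends of the noncoding genes ATF6-DT and LOC124904444, so they cannot be assigned to ATF6 alone.

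HSPA5, which encodes BiP, the endoplasmic reticulum chaperone that also holds the stress sensors in check, had broader peaks in CM than in DMEM. The gene spans 125234853 to 125241343 on chromosome 9. Percentiles were 85.4 and 73.8 in CM and 60.3 and 55.7 in DMEM, so both CM values lay above both DMEM values. In lists of equal length this order was gone: HSPA5 was at 52.0 and 28.1 in CM and at 60.3 and 27.2 in DMEM, with DMEM library 1 the highest. In the full lists, over all 3180 genes with an end peak in all 4 libraries, the medians were 89.2 and 86.8 in CM and 64.8 and 77.8 in DMEM. In CM 1 broad peak of 2285 and 1818 bp spanned the HSPA5 start. DMEM library 1 had a peak of 566 bp from 370 to 935 bases downstream of the start. DMEM library 2 had a peak of 436 bp over the start and a weaker one, at percentile 23.5, from 204 to 421 bases downstream. The highest-scoring HSPA5 peaks of the DMEM libraries therefore did not overlap, and all of these peaks also lay at the end of the divergent noncoding gene HSPA5-DT.

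The extent of peaks in the 2001 bases centred on the start followed the same lines. At HSPA5 peaks covered 2001 and 1818 of these bases in CM, against 566 and 654 in DMEM. At the first listed XBP1 start they covered 1457 and 1507 bases in CM and 410 and 888 in DMEM. At ATF4 the values were 2001 and 1813 in CM and 1696 and 1425 in DMEM, the smallest relative difference of these genes. At ATF6 they were 1148 and 909 against 486 and 393. At these 4 genes each CM library exceeded each DMEM library, and peaks were wider in CM over all genes listed in every library too, as given above. Read depth and immunoprecipitation yield are unknown and cannot be told apart from the medium.

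**Figure D2:**
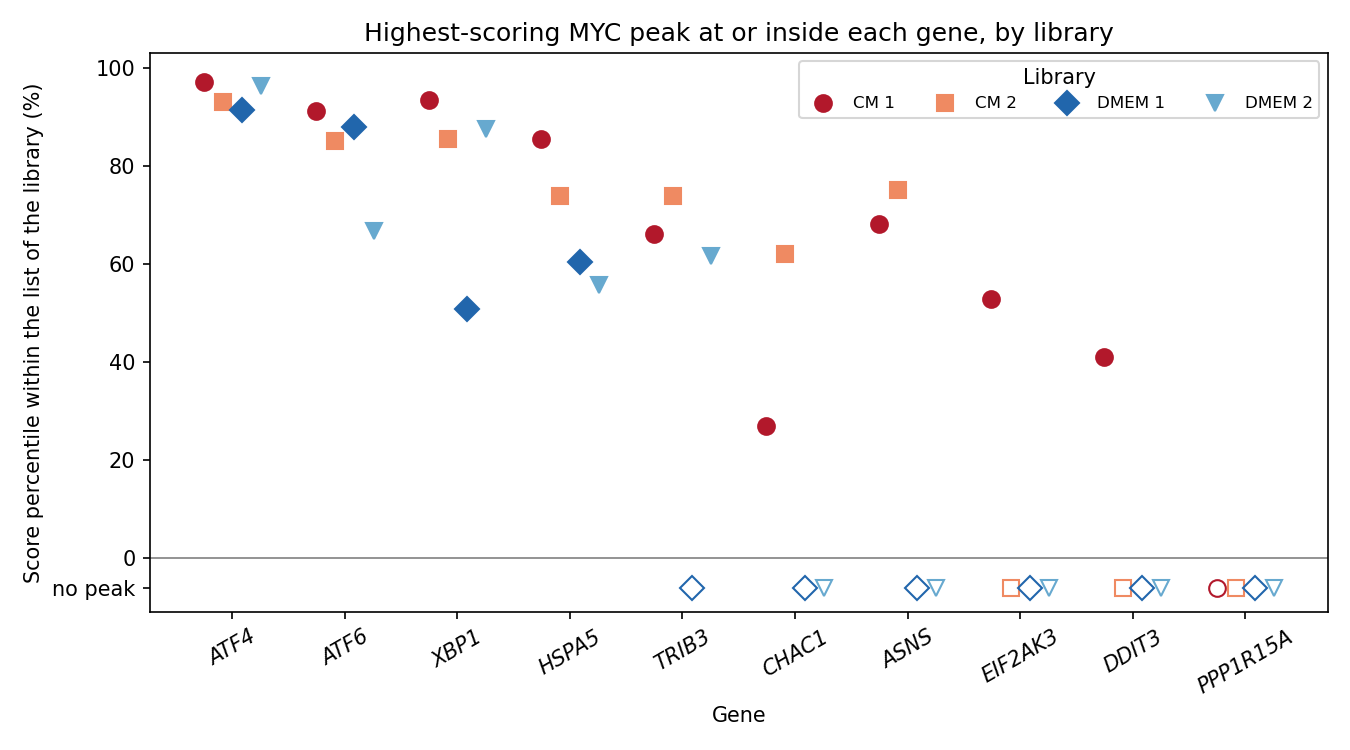
Score percentile, within the list of each library, of the highest-scoring MYC peak at an end of or inside each gene (y axis) for the 10 genes (x axis). Each point is 1 library, and open points below 0 mark libraries without a peak. ATF4 lies between 91.4 and 97.1 in all 4 libraries. CHAC1 and ASNS have filled points in both CM libraries only, and DDIT3 and EIF2AK3 in CM library 1 only.

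The remaining genes, targets and regulators downstream of ATF4 with the kinase PERK, had fewer peaks. TRIB3, a pseudokinase induced by ATF4 and CHOP that dampens the response, lies on chromosome 20 from 380760 to 397559. Its peak was at percentile 66.1 and 73.8 in CM and at 61.7 in DMEM library 2, and DMEM library 1 had none within 53.1 kb of the gene. The CM library 1 peak ended 70 bases before the first listed start of TRIB3, and those of CM library 2 and DMEM library 2 spanned it. The overlaps between these 3 peaks were 470 to 550 bp.

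CHAC1 encodes an enzyme that degrades glutathione and is a target of ATF4. It lies on chromosome 15 from 40953471 to 40956512. CM library 1 had a peak at percentile 26.9 and CM library 2 one at 62.1, which overlapped by 401 bp. Both ended before the CHAC1 start, by 26 and 106 bases. The nearest DMEM peaks lay 159 kb away in library 1 and 11.5 kb away in library 2.

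ASNS encodes asparagine synthetase, a classical ATF4 target of amino acid shortage. The annotated gene covers 97851677 to 97928441 on chromosome 7, and its listed starts, at 97872408 and 97872165, lie inside it, far from both outermost ends. There was no end peak in any library. Both CM libraries had a peak inside ASNS that spanned both listed starts, at percentiles 68.2 and 75.0 and with widths of 807 and 792 bp. No DMEM peak lay within 42.8 kb of the gene.

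DDIT3, which encodes CHOP, the factor linked to cell death under lasting stress, lies on chromosome 12 from 57516588 to 57520517. CM library 1 had a peak at percentile 41.0 that spanned its start and also lay at the ends of MBD6, MIR616 and LOC128125814. In CM library 2 the nearest peak, from 57521614 to 57522385 at percentile 48.6, lay 1097 bp from DDIT3, just outside the window. The nearest DMEM peaks lay 86.2 and 85.3 kb away.

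EIF2AK3, the gene of PERK, lies on chromosome 2 from 88556741 to 88628145. Its single peak, in CM library 1 at percentile 52.9, lay 443 to 817 bases before the listed start and also at the end of EIF2AK3-DT. No peak of the other 3 libraries lay within 62.7 kb of EIF2AK3.

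PPP1R15A, the gene of GADD34, directs the phosphatase that removes the phosphate from eIF2 again. It lies on chromosome 19 from 48872421 to 48876058. Its nearest peaks lay 3.28 kb away in CM library 1, at percentile 8.05, and 61.1 to 61.4 kb away in the other libraries. Of all protein-coding genes, 54.1% had no end peak in any library.

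Against the background, the 10 genes had peaks more often than protein-coding genes in general, in CM and in DMEM. This was not tested, and the 10 genes were chosen with earlier results known. End peaks were found at 8 and 6 of the 10 in CM libraries 1 and 2, beside 43.9% and 40.9% of all genes. In DMEM libraries 1 and 2 they were found at 4 and 5, beside 16.8% and 28.1%. In both CM libraries 6 of 10 had one, beside 39.1% of all genes, and in both DMEM libraries 4 of 10, beside 15.9%. In all 4 libraries the same 4 genes had one, again beside 15.9%. CHAC1 was the 1 gene of 10 with an end peak in both CM libraries and no DMEM library, and 11.0% of all genes had that pattern, so this share is at the background. Without CM library 2 the count was 3 (CHAC1, DDIT3 and EIF2AK3), beside 15.3% of all genes. Without DMEM library 2 it was 2 (CHAC1 and TRIB3), beside 22.4%. With unlisted genes set to percentile 0, the median percentile of the 10 genes was 59.5 and 68.0 in CM and 0 and 27.8 in DMEM, against 0 over all genes in every library. That 0 follows from the shares above, since most genes were not listed.

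Counting peaks anywhere inside the gene as well added ASNS. It gave 7 of 10 in both CM libraries (43.3% of all genes), 4 in both DMEM libraries (18.1%), 4 in all 4 (18.0%) and 2 in CM without DMEM (11.7%). Peaks within 1000 bp of a listed RefSeq start, a rule added after the data were seen, gave the same 7, 4, 4 and 2, beside 42.5%, 17.5%, 17.5% and 11.6% of the 15843 protein-coding genes with a listed start. In the lists of equal length, which keep the peaks of highest score, ATF4, ATF6, XBP1 and HSPA5 kept an end peak in all 4 libraries. Of all genes, 12.3% did. End peaks in both CM libraries were then left at 4 of 10 genes, and in both DMEM libraries at 4, beside 18.0% and 13.9%. CHAC1 had none in any library under that limit, and 0 of 10 genes were left with an end peak in CM alone, beside 1.93% of all genes. For TRIB3 the peaks of CM library 2 and DMEM library 2 were left. Both CHAC1 peaks lay below the percentiles at which the shortened lists began, 69.6 in CM library 1 and 63.6 in CM library 2.

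The authors' common peak lists hold intervals shared by the libraries of a condition. Their list for all libraries had an interval at the ends of ATF4, ATF6, XBP1 and HSPA5, and at no other of the 10 genes. Their CM list had intervals at TRIB3 and CHAC1 too, and inside ASNS.

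The wider pathway was read from 107 further genes in 7 lists, from eIF2 subunits to the degradation machinery of the endoplasmic reticulum. End peaks were found at 80 of them (74.8%) in both CM libraries and at 46 (43.0%) in both DMEM libraries, with the background given above. All 46 also had one in both CM libraries. Another 18 had an end peak in both CM libraries and DMEM library 2 only and 0 in both CM libraries and DMEM library 1 only, where 2290 and 169 of all protein-coding genes had these patterns. In CM without DMEM there were 16 (15.0%, beside 11.0% of all genes). This count was 34 without DMEM library 2, beside 22.4% of all genes, and 6 in lists of equal length, beside 1.93%. The count in both CM libraries was 47 in lists of equal length, beside 18.0%. With unlisted genes set to percentile 0, the median percentile of the 107 genes was 67.3 and 65.6 in CM and 0 and 28.8 in DMEM. Of these 107 genes, 22 had no end peak in any library.

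The genes of eIF2 control had the highest share. Of 16 genes for eIF2 kinases, eIF2, eIF2B and phosphatase subunits, 15 had an end peak in both CM libraries and 9 in both DMEM libraries. The shares were 93.8% and 56.2%, beside 39.1% and 15.9% of all genes. DMEM library 2 had an end peak at 15 of the 16 and DMEM library 1 at 9, beside 28.1% and 16.8% of all genes. The lower count thus came from DMEM library 1, which had fewer end peaks over all genes too. The exception in CM, EIF2B2, had its one peak in DMEM library 2, at percentile 60.1. IMPACT, an inhibitor of the kinase GCN2, was at percentiles 98.8 and 98.6 in CM and 97.3 and 97.6 in DMEM, the highest in this list. EIF2S3, a subunit of eIF2, followed at 96.7 and 94.6 in CM and 96.7 and 94.6 in DMEM. GCN1, an activator of GCN2, was at 97.1 and 97.8 in CM and 90.9 and 91.6 in DMEM, with a peak that also lay at the end of RPLP0. The other eIF2 kinases, set beside PERK after their values were seen, were listed more often. EIF2AK1 had an end peak in every library, and EIF2AK2 and EIF2AK4 had one in 3 libraries, DMEM library 1 being the one without, while EIF2AK3 had one in CM library 1 alone. Several of these peaks ranked low. EIF2AK1 was at 60.7 in CM library 2 and 24.9 in DMEM library 2. EIF2AK2 was at 27.5 in DMEM library 2, and EIF2AK4 at 64.1 and 58.3 in CM. These lay below the percentiles at which lists of equal length began, 69.6 and 63.6 in CM and 39.1 in DMEM library 2. The other peaks of EIF2AK1, EIF2AK2 and EIF2AK4 stay in such lists.

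Of 7 further sensor and processing genes, 3 had an end peak in both CM libraries (42.9%, beside 39.1% of all genes), so this share is near the background. In both DMEM libraries 2 had one (28.6%, beside 15.9%). MBTPS1 and MBTPS2, the proteases that cut ATF6, were those 2. With peaks inside the gene counted as well, the counts were 4 and 3, beside 43.3% and 18.1% of all genes. ERN1, the gene of IRE1, had an end peak in CM only, at percentiles 30.6 and 21.7, and ATF6B had none. The ERN1 peaks, like that of EIF2AK3, lay below the percentiles of 69.6 and 63.6 at which the CM lists of equal length began. MBTPS1, MBTPS2, ERN1 and ATF6B are named here after their values were seen.

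Of 10 partner and related bZIP genes, 7 had an end peak in both CM libraries and 4 in both DMEM libraries. The shares were 70.0% and 40.0%, beside 39.1% and 15.9% of all genes. NFE2L1 led at percentiles 97.8, 96.1, 95.6 and 94.9 in the order of CM and DMEM libraries, with a peak also at the ends of COPZ2 and NFE2L1-DT. Of 33 further ATF4 targets, 23 had an end peak in both CM libraries (69.7%) and 17 in both DMEM libraries (51.5%). PSPH of serine synthesis, at 97.4 or above in every library, shares its peak with CCT6A. SLC3A2, a subunit of amino acid transporters, was at 96.7 or above, with a peak that also lay at the end of SNHG1 and the snoRNA genes within it. GPT2, an alanine transaminase, was at 67.2 and 79.1 in CM and had no end peak in DMEM. DDIT4, an inhibitor of mTORC1, was at 48.6 and 60.0 in CM and likewise had none in DMEM, and its peak lay at the end of DDIT4-AS1 too. Both DDIT4 peaks, and the GPT2 peak of CM library 1, lay below 69.6 and 63.6, where the lists of equal length of CM libraries 1 and 2 began. Targets without any end peak numbered 9 of 33, beside 54.1% of all genes.

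Of 16 chaperones and folding enzymes of the endoplasmic reticulum, 13 had an end peak in both CM libraries and 7 in both DMEM libraries. The shares were 81.2% and 43.8%, beside 39.1% and 15.9% of all genes. PDIA4, a disulfide isomerase, led at 97.6 and 97.7 in CM and 94.5 and 87.5 in DMEM. SDF2L1 was at 74.8 and 75.3 in CM, MANF at 41.0 and 48.6 and ERO1B at 49.6 and 40.1, and these 3 had no end peak in DMEM. They are 18.8% of the list, beside 11.0% of all genes. The MANF and ERO1B peaks lay below 69.6 and 63.6, where the CM lists of equal length began, and the SDF2L1 peaks above. The MANF peak also lay at the end of DOCK3.

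In the full lists, genes of degradation and translocation had the largest gap between the conditions among the 7 lists. In both CM libraries 15 of 19 had an end peak (78.9%, beside 39.1% of all genes). In both DMEM libraries 4 of 19 did (21.1%, beside 15.9%). DMEM library 2 had an end peak at 10 of the 19, beside 28.1% of all genes. Leaving out DMEM library 1 thus raised the lower count to 10. In CM, several of the 15, SEC62 among them, lay below both percentiles, 69.6 and 63.6, at which the lists of equal length began. The 4 genes of both DMEM libraries lay above that limit in DMEM library 2, 39.1, so the gap is smaller in such lists. Genes with an end peak in CM only included SYVN1, a ubiquitin ligase, at 71.2 and 76.2, DERL2 at 70.8 and 69.9 and SEC62 at 64.4 and 55.8. The DERL2 peak lay at the end of MIS12 and that of SEC62 at the end of FHL1P1 as well. Of 6 genes of stress-linked death and mitochondrial relay, 4 and 3 had an end peak in both CM and in both DMEM libraries. BCL2L11, the gene of the death activator BIM, led these at 98.4 and 97.4 in CM and 90.4 and 93.4 in DMEM. The difference between the conditions was not tested for any list.

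**Figure D3:**
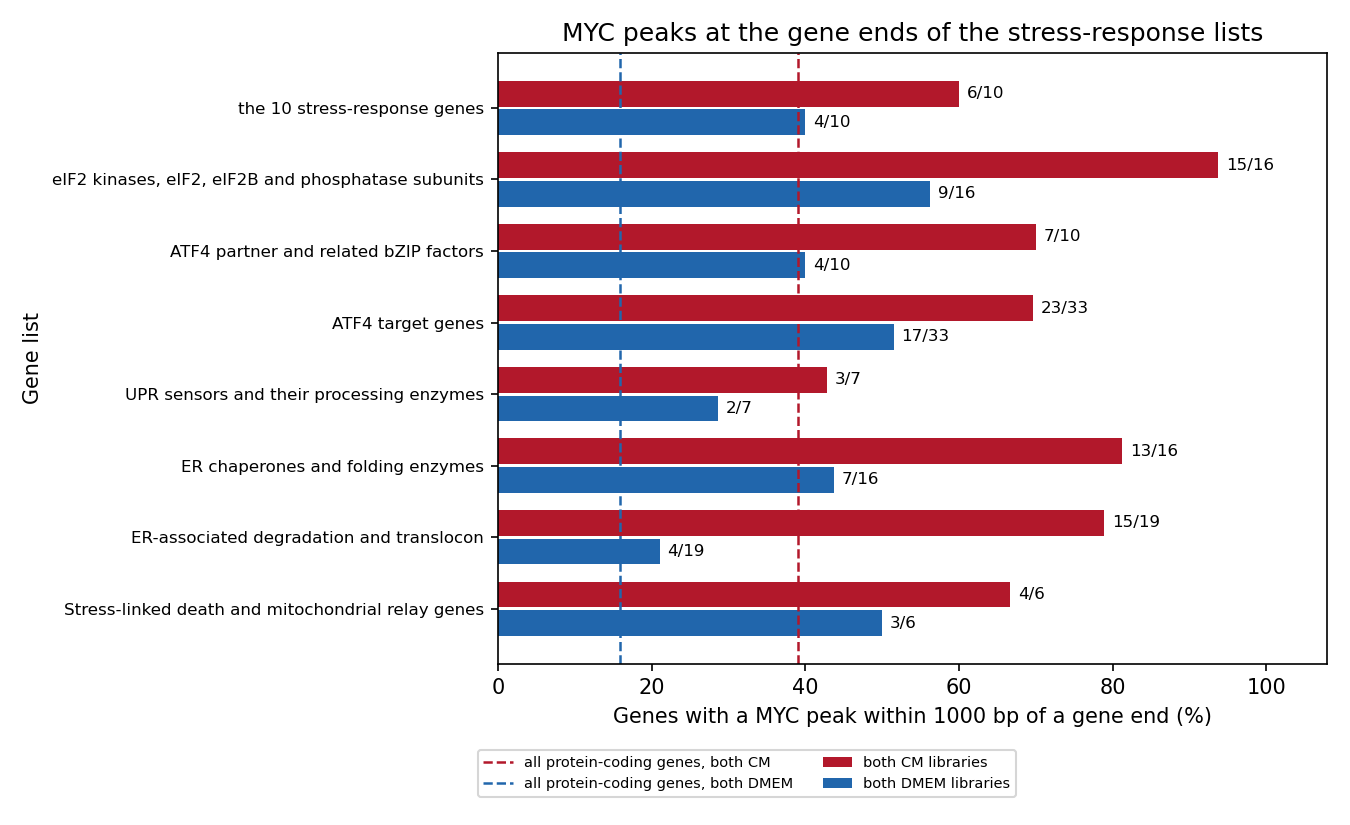
Percentage of genes with a MYC peak within 1000 bp of a gene end (x axis) in both CM libraries (red bars) and both DMEM libraries (blue bars), for the 10 stress-response genes and the 7 wider lists (y axis). Numbers beside the bars are genes with a peak over genes in the list, and dashed lines mark all protein-coding genes, 39.1% in both CM and 15.9% in both DMEM libraries.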

How the data were processed

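MYC peak lists of 4 immunoprecipitated libraries were analysed. The authors deposited 1 list per library, with positions and a whole-number score per peak that is not scaled between libraries, and common lists of merged intervals, whose scores were not used. Per the submitters' processing notes, the build was GRCh38 and the software comprised Bowtie2 2.3.4, MACS2 2.1.1.20160309, Picard 2.9.0, SAMtools 1.3.1 and Trim Galore 0.4.3. Settings and the control of each list were not given in the sources used here.

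From these, peaks were placed by overlap with windows of 1000 bp around gene ends, using Python 3.11.15 with pandas 2.3.3 and positions and promoter sequences of RefSeq GRCh38.p14. The placement was tested on simulated peaks. Alternatives were windows of 500 and 2500 bp, peak midpoints, peaks inside genes, a minimum score of 50, lists of 4657 peaks, the common lists, other percentile rules, annotated starts and leaving out each library. The members and lists were chosen with earlier results of these data known. All 10 members are named. Of the wider lists, the rule names up to 8 genes with the highest mean percentile among those with end peaks in all 4 libraries, and up to 8 with the highest CM percentile among those in CM without DMEM. No gene of the wider lists was in both DMEM libraries without CM. The 3 genes nearest to the leading member, and genes sharing a peak, are named too.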

Additional observations from a re-analysis of the deposited data

How the results depend on the processing

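The counts of the 10 genes in both CM libraries, in both DMEM libraries and in all 4 were reported as 6, 4 and 4. They stayed within 1.5 times these values under every alternative run. In lists of equal length the count in both CM libraries fell to 4, at that limit and equal to the count in both DMEM libraries. Leaving out each library gave 6 to 8, 4 to 5 and 4 to 5. The count in CM without DMEM, reported as 1, was 2 with windows of 2500 bp, 2 with peaks inside genes, 2 with the authors' common lists, 2 with annotated starts and 0 in lists of equal length. Leaving out each library gave 1 to 3: it was 3 without CM library 2 (CHAC1, DDIT3 and EIF2AK3) and 2 without DMEM library 2 (CHAC1 and TRIB3). Of the wider genes, 80 in both CM libraries became 47 in lists of equal length, and the 16 in CM without DMEM became 6 in lists of equal length and 36 with the common lists, where missing from the DMEM common list is enough. Leaving out each library gave 16 to 34 of the latter, with 34 without DMEM library 2. The count in both DMEM libraries, reported as 46, was 36 to 65 over all alternatives. Percentiles changed by 0 to -2.9 points when ties were left out, and 3 of 23 counted as moved. With the peak nearest to an end they changed by -70.2 to 0, and 2 of 23 moved: ATF4 in CM library 1 to 26.9 and ATF6 in DMEM library 1 to 43.7. In lists of equal length the changes ran from -45.7 to 0, and 5 of 23 values could not be given because the peak had left the list. Of the 18 values given, 12 counted as moved, the most of these 3 rules. No paired analysis was possible because no result comes from a test, and the libraries share only a number. Depth is unknown, which limits every missing peak.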
